A study of Mus musculus with 2 samples.

Results

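The genes described here encode molecular chaperones, the proteins that help other proteins fold, keep them from clumping and carry them to the next step. They were chosen by symbol alone: the Hsp90, Hspa, Hspb and Hsph1 genes, the mitochondrial chaperonin pair Hspd1 and Hspe1, the J proteins of classes A, B and C (Dnaja, Dnajb, Dnajc), the TRiC chaperonin and prefoldin. The rule found 82 of the 15127 listed genes, and it uses no expression value, although every listed gene has at least 1 count. Annotation release GENCODE M21 holds 88 genes with such symbols, and the other 6 were not listed in the table. The rule is wider than cytosol and mitochondria, because it also takes in at least 10 genes whose proteins work in the endoplasmic reticulum. It takes in Hspb11 too, whose protein serves intraflagellar transport and is a small heat shock protein by name.

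Poly(A) RNA was sequenced from pSM44, a line of female mouse ES cells whose genome is an F1 of 129 and castaneous, as the labels spell it. Xist, the RNA that silences an X chromosome, is driven there on the 129 allele by a tetracycline-inducible promoter. The 2 libraries formed 1 group, given doxycycline at 2 μg/mL for 24 h in serum-free 2i/LIF medium, and no untreated cells were analysed here. The table held a single column of 10017978 counts that names no library. Whether it pools both libraries or holds 1 of them is not known, so each gene has 1 value, without a replicate error, and no difference between conditions can be tested. Intervals given below are exact Poisson or binomial intervals at the 95% level and cover counting error only. The label of the cells was checked with marker genes. All 10 embryonic stem cell markers were at CPM 100 or more (CPM is the count scaled to a total of 1000000), from 252 to 4716. Of 9 fibroblast markers, 4 were at CPM 1 or more, the highest being Thy1 at 26.7, and Col3a1, Dcn, Lum and Postn were not listed. Of 10 markers of other lineages, 6 were listed, with CPM from 0.200 to 12.1, and 5 were at CPM 1 or more.

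Chaperones work as a relay. Prefoldin and the Hsp70 proteins hold new chains as they leave the ribosome, J proteins choose the client and switch on the Hsp70 ATPase, and exchange factors such as the Hsp110 proteins reset it. Clients then pass to Hsp90, which finishes kinases and receptors, or into the closed chambers of the chaperonins TRiC (cytosol) and Hsp60 with Hsp10 (mitochondria). Some genes of each family are always on, while others are kept low and are induced by heat shock factor when proteins unfold, and still others are used in testis or muscle.

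Most chaperone genes were expressed, and a few dominated the counts. Together the 82 genes had 308281 counts, or 3.08% of all counts (interval 3.07 to 3.09). Of these genes 74 were at CPM 1 or more, which took 11 counts, or 90.2% of them, against 80.1% of all listed genes. Counted over annotation, that was 84.1% of the 88 annotated chaperone genes, against 55.1% of annotated protein-coding genes. At CPM 100 or more stood 33 of them (40.2%, against 15.5% of listed genes), and at CPM 1000 or more 4 (4.88%, against 0.635%). Those 4 were Hsp90ab1, Hsp90aa1, Hspa8 and Cct8. The median was CPM 65.1 for chaperone genes and 18.3 for all listed genes, a difference of 1.78 on the log2(CPM + 1) scale. Hsp90ab1 and Hsp90aa1 alone held 43.9% of the chaperone counts, and without this pair the remaining genes held 1.73% of all counts. As a bin of the distribution, 12 genes (14.6%) lay between 9 and 10 on the log2(CPM) scale, against 1.12% of all listed genes. These were 7 of the 8 TRiC subunits with Hspa4, Hspa5, Hspa9, Hspd1 and Hsp90b1.

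**Figure D1:**
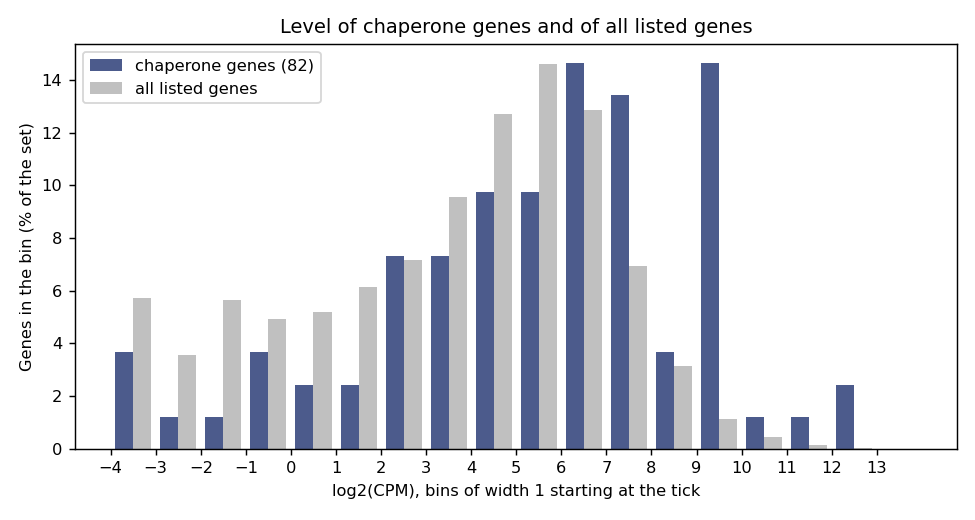
Share of genes (%) in bins of log2(CPM) of width 1, for the 82 chaperone genes and for all 15127 listed genes. The bin from 9 to 10 holds 14.6% of chaperone genes and 1.12% of all listed genes.

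Raw counts grow with transcript length, so levels of different genes are compared below as counts per kilobase of exon, taking the union of all annotated exons. On this scale the median chaperone gene had 136 counts per kilobase, against 38.0 over 15076 listed genes with a known length. Of the chaperone genes 28 (34.1%) lay in the top decile of all genes, and 4 were among the 100 highest, namely Hsp90ab1, Hsp90aa1, Hspa8 and Hspb1. The plot of levels by family shows all 82.

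**Figure D2:**
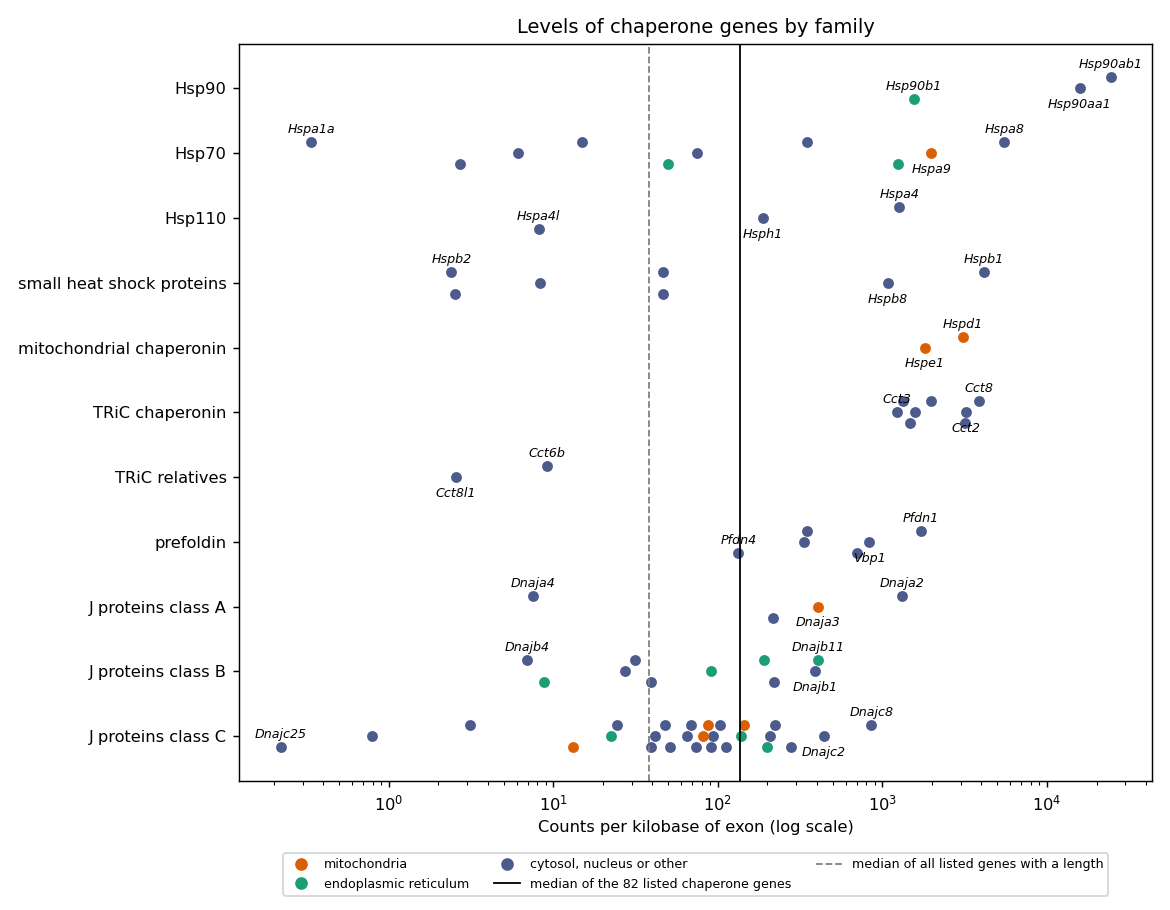
Counts per kilobase of exon (log scale) for each listed chaperone gene, by family, with the medians of the 82 chaperone genes (136) and of all listed genes with a length (38.0). Colours mark the mitochondrial and endoplasmic reticulum lists used here, which may not be complete. Offsets within a row only keep points apart. Hsp90ab1 and Hsp90aa1 lie to the right, Dnajc25 and Hspa1a to the left, and the TRiC subunits span 3.14 times.

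Hsp90 was the most abundant family. Hsp90ab1, the always-on cytosolic form (chromosome 17, 45567775 to 45573271, minus strand, GRCm38), had 73402 counts, or CPM 7327 (interval 7274 to 7380). It stood at rank 6 of all genes per kilobase. Hsp90aa1, the cytosolic form that heat also induces (chromosome 12), had 62061 counts, or CPM 6195 (6146 to 6244), and rank 12. Per kilobase of exon Hsp90ab1 had 24475 and Hsp90aa1 15788 counts, a ratio of 1.55 (1.53 to 1.57), so Hsp90ab1 made up 60.8% of the pair. Per coding length the ratio came to 1.20 (1.18 to 1.21). Hsp90b1, the endoplasmic reticulum form known as Grp94 (chromosome 10), had 6289 counts. Its level was 1560 counts per kilobase, and Hsp90ab1 stood 15.7 times higher (15.3 to 16.1). The spans of other genes, introns included, cover 60.8% of the exonic length of Hsp90b1 but none of that of Hsp90ab1. Exons of other genes cover 15.7% of the exonic length of Hsp90b1. The part of this in the ratio was not tested.

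Within the Hsp70 family a cytosolic, a mitochondrial and an endoplasmic reticulum gene carried nearly all the counts. Hspa8, the constitutive cytosolic Hsc70 (chromosome 9), had 23604 counts, or CPM 2356 (2326 to 2386). It made up 59.6% of the family's summed counts per kilobase, which was 9206 over 10 listed genes. Hspa9, the mitochondrial matrix Hsp70 that pulls imported proteins inward (chromosome 18), had 8540 counts, and Hspa5, the endoplasmic reticulum form BiP (chromosome 2), had 5253. Per kilobase Hspa8 had 5488 counts, 2.77 times Hspa9 at 1981 (2.70 to 2.84) and 4.42 times Hspa5 at 1242 (4.29 to 4.55). Per transcript length Hspa8 was 6.89 times Hspa5, and the order of the 3 genes was the same per transcript and per coding length. Hspa14, which binds ribosomes with the J protein Dnajc2, had 1402 counts, and Hspa13, of the endoplasmic reticulum, had 340. The distant relatives Hspa12a and Hspa12b had 56 and 10 counts, and Hspa12b was just short of CPM 1.

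The heat-inducible Hsp70 genes had few counts. Hspa1b had 42 counts, or CPM 4.19 (3.02 to 5.67), and Hspa1a had 1 count. Both lie side by side on chromosome 17 and are near-identical, so how reads were split between them is uncertain. Whether reads that match both copies were counted at all is not known either. The share below uses their sum, which would not recover reads left out, so it may be too low. Together they made up 0.278% (0.202 to 0.375) of the counts per kilobase of Hspa1a, Hspa1b and Hspa8, and 0.155% per transcript length. The annotation also places 75.0% of the exonic length of Hspa1a under the span of another gene, Gm20481, whereas no base of Hspa1b is covered. Exons of other genes cover 19.0% of the exonic length of Hspa1a. The part of that overlap in the low count of Hspa1a was not tested. Among the heat shock factor genes, Hsf1 had 572 counts (80.6 per kilobase) and Hsf2 had 707 (73.6), while Hsf5 was lowest per kilobase at 7.22.

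Of the Hsp110 exchange factors, Hspa4 prevailed. It had 6983 counts, Hsph1, whose product is known as Hsp105, had 1357 and Hspa4l had 96. Per kilobase Hspa4 was at 1263, which was 6.76 times Hsph1 at 187 (6.38 to 7.17) and 155 times Hspa4l at 8.14 (127 to 192). Per transcript length the first of these ratios was 4.24, and per coding length the second was 72.4. The Bag proteins form another family of exchange factors. In a list of 8 exchange factors and co-chaperones of Hsp70, which also holds St13 and Hspbp1, all 8 reached CPM 1, against 80.1% of all listed genes. Bag1 (1034 counts per kilobase) and Bag6 (721) led it, and Bag2 was lowest at 20.3.

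Small heat shock proteins, which bind unfolding proteins without ATP, ranged from high to nearly silent. Hspb1, known as Hsp25 or Hsp27 (chromosome 5), had 4248 counts and at 4120 counts per kilobase was at rank 97 of all genes. Hspb8, whose protein works with Bag3 to send misfolded clients to autophagy, had 2109 counts and 1082 per kilobase, so Hspb1 was 3.81 times higher (3.61 to 4.02), or 1.89 times per coding length. Bag3 itself had 850 counts, or 332 per kilobase. The muscle-enriched genes Hspb6, Hspb7 and Hspb2 had 107, 7 and 2 counts, and Hspb6, at 46.5 per kilobase, lay above the 38.0 of the median listed gene, and Hspb3 was not listed although no other gene covers it. Hspb9, a testis gene, had 6 counts, and Hspb11 had 96 (46.4 per kilobase).

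The mitochondrial chaperonin genes were abundant, and their relative level hinged on the length used. Hspd1 encodes Hsp60, whose double ring forms a folding chamber, and Hspe1 encodes Hsp10, the lid of that chamber. Hspd1 had 8149 counts, or CPM 813 (796 to 831), and Hspe1 had 2676, or CPM 267 (257 to 277). Per kilobase of exon Hspd1 was 1.70 times Hspe1 (1.63 to 1.78), with 3084 against 1815, but per longest coding transcript the ratio was 0.973 (0.931 to 1.02) and per coding length 0.542 (0.519 to 0.566). The pair share a promoter on chromosome 1 and are read in opposite directions. RefSeq (GRCm38.p6) gives Hspe1 a start at 55088148 on the plus strand. It gives Hspd1 starts at 55088243 and 55087932 on the minus strand. The first lies inside Hspe1, past its start, and the second 216 bases before the start of Hspe1.

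Promoter windows of RefSeq, from 250 bases before to 50 after each start, were matched by symbol to 66 of the 82 genes. The 16 genes with no window were Cct4, Dnajc11, Dnajc12, Dnajc18, Dnajc2, Dnajc22, Dnajc30, Dnajc5, Dnajc5b, Hsp90aa1, Hsp90ab1, Hspa13, Hspa8, Hspa9, Hspb2 and Pfdn1. A heat shock element, bound by heat shock factor trimers, was searched on both strands as the units GAA, TTC and GAA with 2 open bases between neighbouring units. It occurred in windows of 4 chaperone genes (6.06% of 66), against 0.575% of 16523 genes with a window. The 4 were Hspd1, Hspe1, Dnajb6 and Hsph1, where Hspd1 and Hspe1 share the same stretch. A shorter pair, GAA and TTC in either order with 2 open bases between them, which is part of the full element, was found for 19 chaperone genes (28.8%) against 15.8% of all. Windows of Hspa1a and Hspa1b held the short pair only. The stretches with the full element are shown with its letters in capitals, since among the 66 genes searched these promoters hold it. The 16 genes with no window were not searched. In the Hspe1 stretch 2 elements overlap.
Hspe1 and Hspd1, chr1:55088019-55088116, plus strand: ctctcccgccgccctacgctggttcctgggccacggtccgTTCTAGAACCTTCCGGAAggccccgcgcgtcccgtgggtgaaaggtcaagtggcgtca
Dnajb6, chr5:29735812-29735897, plus strand: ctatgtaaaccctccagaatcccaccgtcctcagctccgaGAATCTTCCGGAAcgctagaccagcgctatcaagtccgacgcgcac
Hsph1, chr5:149636287-149636308, minus strand: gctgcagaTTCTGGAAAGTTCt
The Hspe1 stretch ends 32 bases before the start of Hspe1 and the Dnajb6 stretch ends at the base before a start of Dnajb6. For Hspd1 the elements lie at -144 to -127 from the start at 55087932, and outside the window of the start at 55088243. The Hsph1 element lies after both annotated starts. These matches describe letters only. Among the genes that carry them, the level per kilobase ran from 187 for Hsph1 and 221 for Dnajb6 to 3084 for Hspd1.

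All 8 subunits of TRiC, the double ring that folds actin and tubulin, were high, and how close they lay depended on the length used. They had 67534 counts in all, 21.9% of the chaperone counts, and each was at CPM 574 or more. Cct8 had 11931 counts, Cct7 9957, Cct5 8820, Cct4 8292, Cct2 8226, Cct3 7842, Tcp1 6719 and Cct6a 5747. The raw counts thus differed by 2.08 times between Cct8 and Cct6a (2.01 to 2.14). Per kilobase of exon the order ran from Cct8 (3864) over Cct2 (3217), Cct5 (3189), Cct4 (1974), Cct6a (1588), Cct7 (1469) and Tcp1 (1336) to Cct3 (1231). Cct2 and Cct5 did not differ beyond counting error (ratio 1.01, 0.979 to 1.04), while every other pair of neighbours in that order did. The highest subunit was 3.14 times the lowest (3.05 to 3.23). Per longest coding transcript this was 1.81 times, between Cct8 and Tcp1, over 7 subunits. Cct6a has no coding transcript in M21, where it is annotated as a processed transcript. The annotated exons of Cct7 and Cct3 sum to 6778 and 6370 bases, against 2441 and 1977 for their longest coding transcripts. Cct8 was highest on every one of these scales. The spans of other genes cover 22.5% of the exonic length of Tcp1 (their exons 16.9%) and 15.3% of that of Cct6a. For the other subunits this was at most 6.74%, and its part in the spread was not tested.

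The spread can be set beside that of another complex. The SD of log2 counts per kilobase was 0.65 over the 8 TRiC subunits and 0.72 over 14 subunits of the 20S proteasome, another stacked ring with fixed subunit numbers. Per transcript length it was 0.30 for 7 TRiC subunits and 0.72 for the proteasome, and per coding length 0.27 for TRiC and 0.55 for the proteasome. These SDs describe genes of a single table and were not tested against each other, and per exon the values lie close together. The TRiC relatives stood apart from the ring subunits: Cct6b, a testis form of subunit 6, had 17 counts and Cct8l1 had 5. Genes put in a list of chaperonin and prefoldin partners were at CPM 1 or more in 6 of 6 cases, against 80.1% of all listed genes. Uri1 (373 counts per kilobase) and Pdrg1 (139) led this list, with Txndc9 lowest at 95.3.

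**Figure D3:**
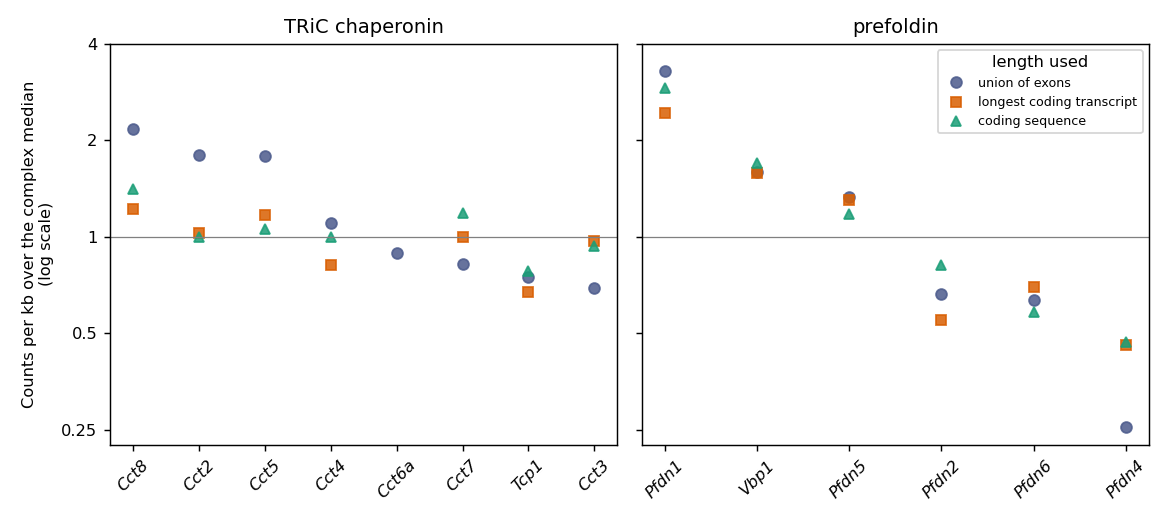
Counts per kilobase of each TRiC and prefoldin subunit over the median of its complex (log scale), with length taken as the union of exons, the longest coding transcript or the coding sequence. TRiC spans 3.14 times with exons and 1.81 times with transcripts, prefoldin 12.9 and 5.31 times, and Cct6a has an exon value only.

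Prefoldin, the jaw-shaped hexamer that brings actin and tubulin chains to TRiC, was lower and less even. Its 6 genes had 6052 counts. Pfdn1 had 1902 counts, Vbp1 1775, Pfdn5 972, Pfdn2 671, Pfdn6 396 and Pfdn4 336. Per kilobase Pfdn1 was highest at 1715, then Vbp1 at 833, Pfdn5 at 697, Pfdn2 at 346, Pfdn6 at 332 and Pfdn4 at 133. Pfdn2 and Pfdn6 did not differ beyond counting error (ratio 1.04, 0.920 to 1.18), and the other neighbours did. Pfdn1 was 12.9 times Pfdn4 (11.4 to 14.5), or 5.31 times per longest coding transcript. Pfdn1, Vbp1 and Pfdn5 led in this order, and Pfdn4 was last, whichever length was used. The spans of other genes cover 41.8% of the exonic length of Pfdn2 (their exons 27.6%) and 32.2% of that of Pfdn4 (exons 28.65%). They cover none of that of Pfdn1 or Vbp1, and the part of this in the spread was not tested. Vbp1 was the only X-linked gene of the 82, and its value pools the 129 allele with the castaneus allele.

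J proteins were the most numerous family and held few of the counts. They made up 41 of the 82 listed genes but held 8.97% of the chaperone counts. Of them 39 were at CPM 1 or more, against 80.1% of all listed genes, and 10 at CPM 100 or more, against 15.5%. Their median was 87.1 counts per kilobase, against 833 for the other 41 chaperone genes. Summed per kilobase, the 41 J genes reached 6862 counts, or 0.745 times the 9206 of the 10 Hsp70 genes, and 1.19 times per coding length. No J gene dominated as Hspa8 did, for the highest, Dnaja2, made up 19.1% of the sum.

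Class A J proteins, the closest to bacterial DnaJ, were led by Dnaja2. This cytosolic partner of Hsc70 had 3906 counts and 1313 per kilobase. Its relative Dnaja1 had 1871 counts and 217 per kilobase, so Dnaja2 was 6.06 times higher (5.73 to 6.40), or 2.01 times per coding length. Dnaja3, the mitochondrial Tid1, had 1596 counts, while Dnaja4 had 27, with 44.1% of its exons under another gene. In class B, Dnajb11, a lumenal partner of BiP, had 1310 counts (405 per kilobase). Dnajb1, the classical Hsp40 that drives disaggregation, had 1254 (391), and Dnajb6, which keeps polyglutamine proteins from aggregating, had 1337 (221). Which of these was highest changed with the length used. Dnajb4 and Dnajb5, close relatives of Dnajb1, had 61 and 187 counts, and Dnajb2, best known in neurons, had 167.

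Class C holds J proteins tied to a single task, and was led by Dnajc8. Dnajc8, a splicing-associated protein, had 2186 counts and 856 per kilobase. Dnajc2, the ribosome-bound partner of Hspa14, had 2212 counts (440), Dnajc9, a histone chaperone, 662 (279) and Dnajc21, needed to mature the large ribosomal subunit, 1059 (222). Dnajc8 was first under each length, but per coding length Dnajc19 and Dnajc5 followed it, ahead of Dnajc2, Dnajc9 and Dnajc21. Among proteins of membrane traffic, Dnajc5, known as cysteine string protein, had 717 counts, Dnajc6, the clathrin-uncoating auxilin known mainly from neurons, 666 and the endosomal Dnajc13 1117. Dnajc24, for diphthamide synthesis, had 125 counts and Dnajc7, which links Hsp70 with Hsp90, 359. The remaining class C genes ran from 1 count for Dnajc5b and Dnajc25 to 424 for Dnajc14. This leaves aside genes of the mitochondrial and endoplasmic reticulum lists below, which may not hold every gene of those compartments. The exons of Dnajc25 lie to 94.5% under the span of Gm20503, introns included, and to 7.66% under exons of other genes.

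By compartment, all 8 mitochondrial and all 10 endoplasmic reticulum genes were at CPM 1 or more, against 80.1% of all listed genes. Genes of the mitochondrial list held 7.47% of the chaperone counts. After Hspd1, Hspa9 and Hspe1 came Dnaja3 at 408 counts per kilobase. Dnajc19, of the import motor, had 579 counts (144), Dnajc11, of the inner membrane organising system, 930 (87.1) and Dnajc15, a relative of Dnajc19, 531 (81.5). Dnajc30 was lowest with 22 counts, and 45.6% of its exonic length lies under the span of another gene (26.25% under exons). Mitochondrial partners outside the rule were at CPM 1 or more in 8 of 8 cases, against the same 80.1%, led by the mitochondrial Hsp90 gene Trap1 (1389 counts per kilobase) and the protease gene Clpp (842), with Grpel2 lowest at 59.9.

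The 10 genes of the endoplasmic reticulum list held 5.25% of the chaperone counts. Hsp90b1 (1560 counts per kilobase) and Hspa5 (1242) led them, followed by Dnajb11 (405) and Dnajc10, a disulfide reductase, with 995 counts (199). Dnajb12 had 642 counts, Dnajc3, known as P58IPK, 714, Dnajb9 230, Dnajc1 261 and Dnajb14 139. Partners in the same compartment, all 9 at CPM 1 or more (80.1% of all listed genes were), had a median of 1245 counts per kilobase, against 165 for the 10 genes of the rule. Calr, the lectin chaperone calreticulin, had 4032 counts per kilobase and P4hb, protein disulfide isomerase, 2673, while the BiP exchange factor Sil1 was lowest at 36.4. The endoplasmic reticulum stress element, CCAAT and CCACG with 9 open bases between them on either strand, through which unfolded proteins in this compartment raise transcription, was in the windows of Hspa5, Hsp90b1 and Dnajc3. That was 4.55% of 66 chaperone genes, against 0.169% of 16523 genes. All 3 belong to the endoplasmic reticulum list, which was drawn up without the sequences. Their stretches are shown for that reason, with the element in capitals. Hsp90b1 carries 2 copies, the second on the opposite strand.
Hspa5, chr2:34772005-34772063, plus strand: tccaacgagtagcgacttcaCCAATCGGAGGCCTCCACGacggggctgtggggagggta
Hsp90b1, chr10:86705513-86705676, minus strand: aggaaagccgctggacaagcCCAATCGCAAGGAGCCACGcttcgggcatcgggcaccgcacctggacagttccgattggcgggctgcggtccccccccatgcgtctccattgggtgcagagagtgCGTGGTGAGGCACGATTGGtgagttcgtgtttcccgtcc
Dnajc3, chr14:118937807-118937865, plus strand: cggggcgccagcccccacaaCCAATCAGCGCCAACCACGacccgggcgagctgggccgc
The level per kilobase differed widely among them, from 139 for Dnajc3 to 1560 for Hsp90b1.

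Chaperone genes known mainly from testis or muscle ran from 1 to 198 counts. In bulk RNA, few cells with a transcript and little of it per cell cannot be told apart. Of 14 such genes 10 were listed and 5 were at CPM 1 or more, whereas 80.1% of all listed and 55.1% of annotated protein-coding genes were. Hspa2, needed for meiosis in male germ cells, was highest with 198 counts, or CPM 19.8 (17.1 to 22.7), and at 74.9 counts per kilobase it lay above the median listed gene (38.0). Hspa8 was 73.3 times Hspa2 per kilobase (63.7 to 84.7), 126 times per transcript length and 117 times per coding length. Hspb6 had 107 counts, Dnajb13, of the sperm flagellum, 74 and Dnajc5g 64 (39.1 per kilobase). Cct6b followed with 17 counts, and Hspb7, Hspb9, Cct8l1, Hspb2 and Dnajc5b had 7 or fewer. Hspa1l, Dnajb3, Dnajb8 and Hspb3 were not listed.

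Cofactors load Hsp90 with clients or time its cycle. Each of the 14 co-chaperone genes reached CPM 1, against 80.1% of all listed genes, and their median was CPM 149, against 18.3 for all listed genes. Fkbp4, an immunophilin, had 3106 counts per kilobase and Stip1, the Hop protein that joins Hsp70 to Hsp90, had 2762. Cdc37l1 was lowest at 51.4. Over all 49 partner genes outside the rule, 49 were at CPM 1 or more, against the same 80.1%, and their median was 329 counts per kilobase, against 38.0 for all listed genes with a length.

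Some chaperone genes share their position with another gene, and several of the lowest values lie there, but not all. Hspb9, Hspb7 and Cct8l1, with no overlap, had 6, 7 and 5 counts, and Hspb3, also with none, was not listed. Of the 82 listed genes 61 had at most 10% of their exonic length under another gene's span. By the same limit, 11976 of all 15127 listed genes were overlap-free protein-coding genes of M21. In M21 as a whole 71.4% of overlap-free protein-coding genes were listed, against 5.59% of the 1271 genes that lie wholly inside another. The 3 chaperone genes of the second kind, Dnajb3, Dnajb7 and Dnajc28, were not listed, and exons of other genes cover none of their exonic length. Over 90% covered were also Hspa1l, which was not listed, and Dnajc25, with 1 count. Dnajb8, 46.5% covered, was not listed either, whereas Hsp90b1 had 6289 counts with 60.8% of its exonic length covered. A gene that is not listed is therefore described as such and not as silent.

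**Figure D4:**
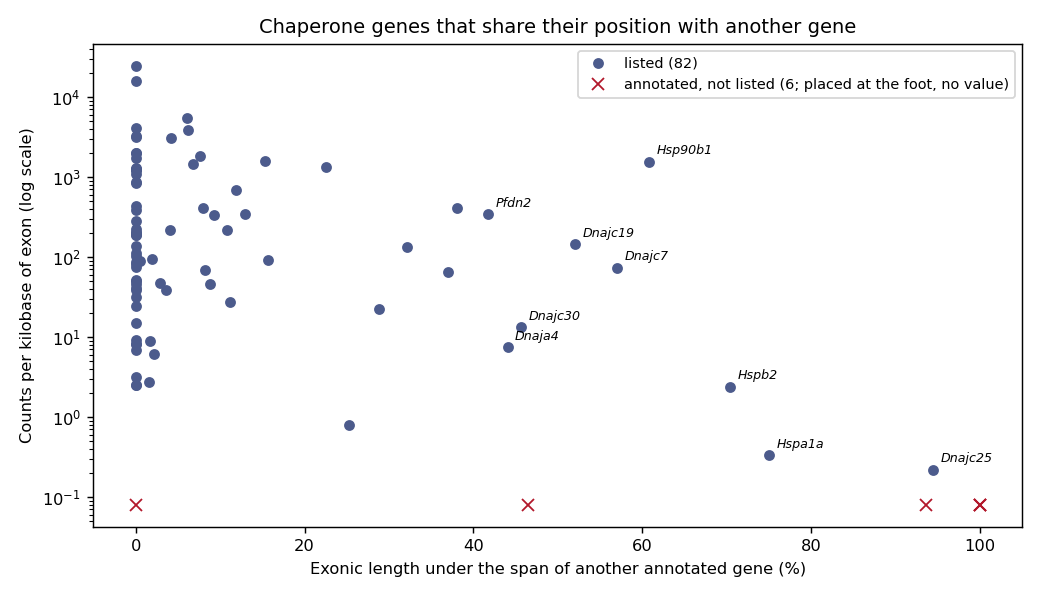
Counts per kilobase of exon (log scale) of the 82 listed chaperone genes by the share of their exonic length under another gene's span (%), with the 6 genes that were not listed at the foot. Hspb2, Hspa1a and Dnajc25, beyond 70% coverage, had 2, 1 and 1 counts, while Hsp90b1 at 60.8% had 6289.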

How the data were processed

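The file the authors deposited holds raw counts of protein-coding genes as 1 column of whole numbers, from 1 to 117610, that names no library. Per the submitters' processing notes, the tools were Trimmomatic 0.38, SAMtools, HISAT2 and, from Subread 1.6.4, featureCounts, and the build was GRCm38.p6. The sources used here do not give how reads with several matches, strand and introns were handled, or with which annotation. The deposited order of the genes followed counts per base of the whole gene span, introns included (Spearman rank correlation 0.9998). Whether the counts hold reads from introns was not tested. If they do, counts per kilobase of exon include such reads. Genes with overlapping neighbours or near-identical copies are therefore uncertain.

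Counts were scaled by the total of 10017978 to CPM, and a gene at CPM 1 or more was called detected. Lengths came from GENCODE M21 (GRCm38) by symbol, with RefSeq synonyms, which left 51 genes with 0.0404% of the counts without a length. Overlap was the share of exonic bases under the whole span of another annotated gene, introns included, unless exons are named. Intervals were exact Poisson for counts and Clopper-Pearson for shares and ratios (both at 95%). At 100 counts the interval's half-width was 20.1% of the value. The functions were tested on simulated counts. With 1 value per gene no test between groups, no replicate left out and no comparison of scalings with edgeR or DESeq2 could be run.

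The genes and lists were chosen with earlier results of these data known. Any listed chaperone gene could be named in its family. Fuller values are given for all subunits of TRiC and prefoldin, all Hsp90, Hsp70 and tissue-restricted genes, the 3 highest and the lowest of each group, and the 2 highest and the lowest of each partner list. Bag3, Thy1 and the genes that hold a promoter element were named after their values were seen. Alternatives were other minimums, a pseudocount of 0.1 in place of 1, other lengths, overlap-free genes and unlisted genes set to 0. Software was pandas 2.3.3, scipy 1.17.1 and numpy 2.4.6 under Python 3.11.15, with matplotlib 3.10.9 for plots.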

Additional observations from a re-analysis of the deposited data

How the results depend on the processing

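Counts of detected genes stayed within 1.5 times under each of the 4 alternatives tried, from 57 (overlap-free genes) to 77 (CPM 0.5) for the chaperone genes and from 4 to 7 for the tissue-restricted ones. The chaperone share of all counts was 2.87% per kilobase of exon, 2.34% without Hsp90ab1 and, in an alternative chosen after seeing the data, 1.73% without Hsp90ab1 and Hsp90aa1. Their median minus that of all genes stayed positive, at 1.83 (pseudocount 0.1), 1.76 (per kilobase), 1.19 (genes at CPM 1 or more), 3.71 (unlisted genes at 0) and 1.72 (overlap-free). In the order longest coding transcript, coding length and raw counts, the TRiC spread was 1.81, 1.80 and 2.08 times and the prefoldin spread 5.31, 6.22 and 5.66 times. The inducible Hsp70 share was 0.155%, 0.183% and 0.182%, and 1.62% with Hspa2 added (Hspa1l, meant to be added too, was not listed). The Hsp90ab1 share was 54.5% by coding length and 54.2% by raw counts. The ratio of Hspd1 to Hspe1 turned to 0.973 and 0.542 with transcript and coding length, and was 3.05 with raw counts. Annotated exons of Hspe1 sum to 1474 bases, its longest coding transcript to 774 and its coding sequence to 306. No paired analysis was possible because the counts have 1 column. Fits per library, replicates left out and other scalings between libraries were not run for the same reason. Depth limits genes near CPM 1, where Dnajc12 with 14 counts passed and Hspa12b with 10 did not.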
